A study of Mus musculus with 2 samples.

Results

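Among mouse embryonic stem cells treated with Idoxuridine, the cells with the smallest share of naive pluripotency transcripts (naive-low) were compared with the cells that had the largest (naive-high). For each Idoxuridine cell with at least 23500 unique molecular identifiers (UMIs, molecular tags that mark single captured transcripts), the share of its UMIs that fell in Zfp42, Nr0b1, Nanog, Tdh and Klf4 was computed. The naive-low cells are the bottom quintile by that share and the naive-high cells the top quintile, 129 cells each, out of 648 Idoxuridine cells of that depth, 742 Idoxuridine cells deposited and 1553 cells in the whole series. The 5 score genes chose the cells, so their values are given as a description with no test. All Idoxuridine cells had been exposed for 24 h to Idoxuridine, a thymidine-like nucleoside carrying iodine that cells incorporate when they copy DNA, and the DMSO cells had received the solvent for the same time. The treatment label gives 10 µM, while a protocol text gives 10 mM, and the conflict could not be settled here. All cells were of the male E14 line, grown without feeder cells on gelatin in 2i/LIF, and the strain label reads C57BL/6. There was 1 droplet library (10x Genomics 3′ chemistry) per treatment, so cells of 1 library are all that each value rests on. Cells are not replicate cultures, no test or p-value was possible, and every interval below covers counting error only.

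Naive pluripotency is the state of the early epiblast, held in culture by leukaemia inhibitory factor and by inhibitors of the ERK and GSK3 kinases (2i). Its network of transcription factors includes Nanog, Klf4, Klf2, Esrrb, Tfcp2l1 and Tbx3, while Pou5f1 (Oct4) and Sox2 are shared with the later, primed state. In mouse embryonic stem cells, naive factors are known to vary from cell to cell, and Nanog, Zfp42 and Dppa3 are textbook cases.

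The proximal promoters of genes that lead the comparison were searched for short motifs, since many pluripotency genes carry binding sites for Oct4 and Sox2 and many Wnt target genes carry sites for Tcf/Lef factors. Each window runs from 250 bases before to 50 after a transcription start and was taken from RefSeq on GRCm38.p6. The motifs, on both strands, were an octamer core TTTGCAT, a Sox core ACAATG, and a Tcf/Lef core CTTTGAA or CTTTGAT. Of the 5 score genes, Zfp42, Nr0b1, Nanog and Klf4 were matched, with 5 windows between them. An octamer core lay in 2 of those 4 genes, and in 5.24% of the 27025 genes with a window. The Nanog window below is chr6:122707239-122707538 on the plus strand, and its capitals mark an octamer core, 1 further base and a Sox core, the first base 75 bases before the start. An octamer core with a Sox core at most 3 bases after it was found in 3 windows of all 32851 (0.00913%), 2 of which were the alternative starts of Nanog. The Zfp42 window is chr8:43306960-43307259 on the minus strand, with an octamer core in capitals that begins 185 bases before the start.
Nanog: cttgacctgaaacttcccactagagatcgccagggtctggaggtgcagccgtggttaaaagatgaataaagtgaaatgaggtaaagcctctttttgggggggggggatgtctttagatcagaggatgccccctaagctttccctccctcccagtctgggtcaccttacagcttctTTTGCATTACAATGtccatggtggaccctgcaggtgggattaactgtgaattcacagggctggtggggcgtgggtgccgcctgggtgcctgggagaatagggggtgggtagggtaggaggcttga
Zfp42: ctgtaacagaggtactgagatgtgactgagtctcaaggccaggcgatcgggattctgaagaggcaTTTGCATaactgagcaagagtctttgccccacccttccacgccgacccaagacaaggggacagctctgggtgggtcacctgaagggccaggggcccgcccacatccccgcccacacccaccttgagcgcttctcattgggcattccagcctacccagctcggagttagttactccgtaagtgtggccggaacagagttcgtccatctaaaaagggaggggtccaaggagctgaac

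For the genes higher in naive-low cells, windows of 2 genes of the Wnt pathway described below are shown, with a Tcf/Lef core in capitals. These 2 genes were picked for display, and Dkk1 is not on the Wnt target list, so the list shares that follow leave it out. Of the 17 genes on the Wnt target list, 10 had a window, and 2 of these 10 (20%) carried a Tcf/Lef core. Among the 4969 genes compared that had a window, 6.72% carried it. The Sp5 window is chr2:70474673-70474972 on the plus strand, and its core begins 104 bases before the start. The Dkk1 window is chr19:30549447-30549746 on the minus strand, and its core begins 117 bases before the start. A Tcf/Lef core lay in 9.0% of the 211 windows of genes higher in naive-low cells, in 6.67% of the 240 windows of genes lower in them, in 5.59% of the 6337 windows of all genes compared, and in 8.65% of the windows of all genes. These matches are a description and show no binding.
Sp5: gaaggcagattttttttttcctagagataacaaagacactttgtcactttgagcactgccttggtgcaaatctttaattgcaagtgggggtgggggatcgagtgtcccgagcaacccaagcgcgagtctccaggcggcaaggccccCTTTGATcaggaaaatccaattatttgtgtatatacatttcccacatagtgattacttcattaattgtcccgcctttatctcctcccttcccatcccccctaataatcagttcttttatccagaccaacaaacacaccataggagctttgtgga
Dkk1: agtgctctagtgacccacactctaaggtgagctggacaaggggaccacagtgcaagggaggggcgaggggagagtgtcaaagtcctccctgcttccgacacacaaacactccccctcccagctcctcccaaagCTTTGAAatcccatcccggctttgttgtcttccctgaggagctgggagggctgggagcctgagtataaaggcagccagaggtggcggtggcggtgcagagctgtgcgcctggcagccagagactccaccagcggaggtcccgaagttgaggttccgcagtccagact

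The naive-low cells held 332 to 1526 CPM of the 5 score genes (CPM, counts per 1000000 UMIs, here of a single cell; median 1278), the naive-high cells 2696 to 5465 (median 3188), and the 764 DMSO cells of the same depth had a median of 3033. The cut was not a gap in the distribution. The highest naive-low cell had 1526.3 and the next cell outside it 1527.9 on the same scale, and the lowest naive-high cell had 2695.6 with 2695.0 in the next cell below. At or below the naive-low cut lay 3 of the 764 DMSO cells (0.393%, exact binomial 95% interval 0.081% to 1.14%), and 565 of them (74.0%, 70.7% to 77.0%) lay at or above the naive-high cut. The naive-high Idoxuridine cells thus overlapped with most DMSO cells on this share, while the naive-low cells overlapped with few.

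**Figure D1:**
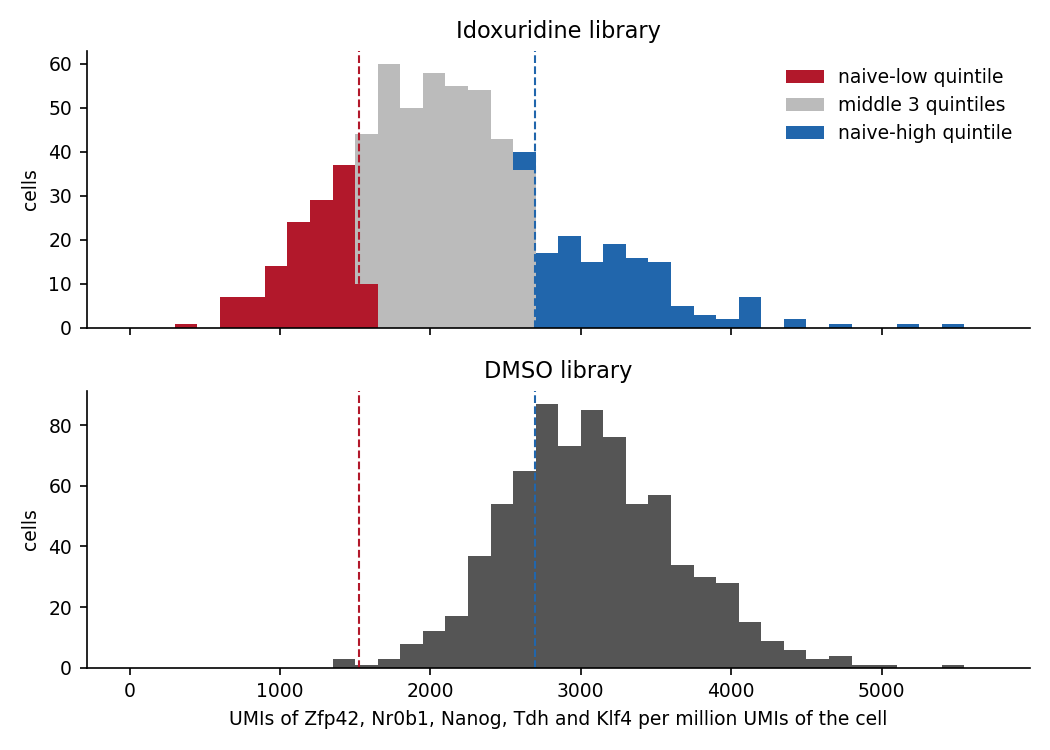
Number of cells (vertical axis) by the CPM of the 5 score genes in the cell (horizontal axis), for the 648 Idoxuridine cells and the 764 DMSO cells; dashed lines mark the cuts. The Idoxuridine cells form 1 broad distribution with no gap at either cut, and 3 DMSO cells lie at or below the naive-low cut.

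The score genes themselves contributed unequally. In CPM of the UMIs summed over a side, Zfp42 (Rex1, a zinc finger protein marking naive cells) had 399 CPM in naive-low cells, 1181 CPM in naive-high cells and 930 CPM in DMSO cells. Nanog, the homeobox factor that stabilises self-renewal, had 126, 373 and 295 CPM in the same order, and Klf4, a Krüppel-like factor, had 138, 403 and 303 CPM. Tdh, the threonine dehydrogenase on which mouse embryonic stem cells depend, had 520, 1200 and 1362 CPM, and Nr0b1 (Dax1), an orphan nuclear receptor, 57.1, 100.4 and 119 CPM. When the sides were chosen on the other 4 score genes, the log2 ratio of naive-low over naive-high was -0.83 for Zfp42, -0.92 for Nanog, -0.82 for Klf4 and -0.49 for Tdh. Nr0b1 went the other way under that choice, with 103 CPM in naive-low cells and 82.0 CPM in naive-high cells (log2 ratio 0.33, interval 0.14 to 0.52). The same left-out ratios in DMSO cells were -0.28, -0.43, -0.62, -0.27 and, for Nr0b1, -0.14. Over the 648 Idoxuridine cells at a common depth, Spearman's rho between pairs of score genes ran from -0.093 to 0.346. The 4 pairs with Nr0b1 lay between -0.093 and 0.034, and in sparse counts these values are a description only.

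Outside the score genes, 6366 genes had at least 200 UMIs over both sides. A gene was counted as higher or lower when its log2 ratio of naive-low over naive-high was at least 0.5 in size and the Poisson 95% intervals of its 2 levels did not meet. By that rule 206 genes (3.24%) were higher and 222 genes (3.49%) were lower in naive-low cells, and the median log2 ratio over all 6366 was -0.0046. In either direction this is 6.72% of the genes compared, the share to set beside each list count below. At these shares a short list would hold few genes in 1 direction, so a count of none there is not read as a result. The sides also differed in called cell cycle phase, with 36.4% of naive-low and 70.5% of naive-high cells called S and 62.0% and 27.9% called G2/M, against 59.8% and 39.9% of DMSO cells. Phase was called from S and G2/M gene lists, and its part in the results was not tested. Ratios within called phases are given for some genes and lists only, and those of other genes may differ within phases too. With quintiles drawn inside each called phase, a comparison added after seeing the data, 147 genes were higher and 159 lower. All 428 genes of the first count kept their sign there. These genes were picked for their ratio in cells of the same library by the same share, so the kept signs are a description only.

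The 12 genes with the highest ratios were Khdc1a, Dkk1, Esx1, Peg3, Ldoc1, C130073F10Rik, Cdkn1c, Dppa3, Lef1, Ube2e2, Phlda1 and Cdx2, with log2 ratios from 3.61 to 1.57. The 12 with the lowest were Fgf4, Slc7a3, Tbx3, Enox1, Nr5a2, Zfp57, Tdgf1, Id3, Manba, Calcoco2, Itpka and Bmp4, from -1.39 to -1.07. At the common depth of 23500 UMIs, naive-low cells carried 0 to 10 of the 12 highest genes (median 5), naive-high cells 0 to 7 (median 2), and DMSO cells 0 to 8 (median 1). Cells with at least 6 of them numbered 59 of 129 naive-low cells (45.7%), 2 of 129 naive-high cells (1.55%) and 5 of 764 DMSO cells (0.654%). These genes were picked for their ratio in the same cells, so the numbers describe how the transcripts were spread over cells and support nothing further.

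**Figure D2:**
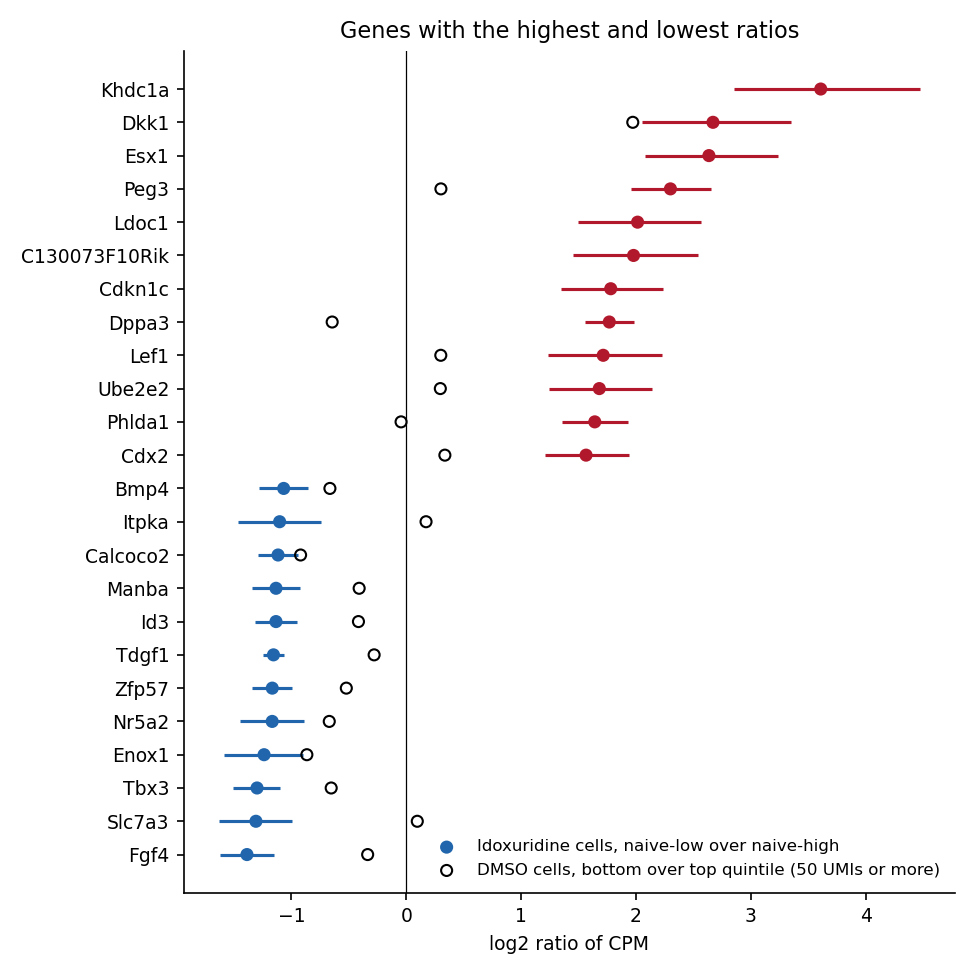
Log2 ratio of CPM (horizontal axis) for the genes at the top and the bottom of the ranking, 12 each way; filled points are naive-low over naive-high Idoxuridine cells with 95% counting intervals, and open points the bottom over the top quintile of DMSO cells by the same share, shown for genes with at least 50 UMIs there. Dppa3 stands at 1.77 in Idoxuridine cells and -0.65 in DMSO cells. Its DMSO value rests on 81 UMIs, too few to be counted there, with an interval of -1.31 to 0.019. Of the 12 lowest genes, 10 are below 0 in both libraries.

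Many naive pluripotency genes outside the score were lower in naive-low cells. Of 21 other naive genes with enough UMIs, 13 were lower, 1 was higher and 7 were neither, and the median log2 ratio over the 26 members with at least 50 UMIs was -0.60, against 0.0058 over the 9877 such genes. Summed over the list, naive-low cells had 3644 CPM, naive-high cells 5521 CPM and DMSO cells 6423 CPM. At the common depth a naive-low cell held 37 to 267 UMIs of the list (median 82), a naive-high cell 66 to 249 (median 129), and the DMSO median was 148, so the sides overlapped while 95.3% of naive-low cells lay below the naive-high median. The sum was higher at each step over the 5 quintiles, with 3644, 4056, 4357, 4787 and 5521 CPM from naive-low to naive-high.

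Fgf4, the growth factor that embryonic stem cells secrete and that drives their exit from the naive state, had the lowest ratio of all genes counted. It lies at chr7:144847367-144865243 (GRCm38, plus strand) and had 38.2 CPM in naive-low cells (interval 33.4 to 43.6), 100.0 CPM in naive-high cells (91.3 to 109) and 114 CPM in DMSO cells. A naive-low cell had 0 to 10 UMIs of Fgf4 (median 1) and a naive-high cell 0 to 7 (median 2), and a UMI was found in 50.4% and 85.3% of them. Klf2, a Krüppel-like factor of the naive network, had 0 to 38 UMIs in naive-low cells (median 13) and 0 to 63 in naive-high cells (median 23), and its level was 602 and 1046 CPM (log2 ratio -0.80). Tbx3, a T-box factor, had 50.7 and 125 CPM (-1.30), and the orphan nuclear receptor Nr5a2, an activator of Pou5f1, 28.8 and 64.7 CPM (-1.17). Tfcp2l1 (-0.82) and Esrrb (-0.77), both core naive factors, were lower as well. The share of cells with a UMI that free RNA alone gives could not be measured, because no cell type that lacks these genes was present.

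Among general pluripotency genes, Sox2 was lower and Pou5f1 did not pass the rule. Sox2 (chr3:34650405-34652461, GRCm38, plus strand) had 128 CPM in naive-low cells, 250 CPM in naive-high cells and 337 CPM in DMSO cells, a log2 ratio of -0.97 (-1.10 to -0.83). Single naive-low cells held 0 to 14 UMIs of Sox2 (median 2) and naive-high cells 0 to 21 (median 6). Sox2 lies inside the annotated Sox2ot transcript on the same strand, and reads of the 2 cannot be told apart here. Pou5f1 had 1460 CPM in naive-low cells, 1823 CPM in naive-high cells and 2072 CPM in DMSO cells, and its log2 ratio of -0.32 (-0.36 to -0.28) was under the size rule. Its UMIs per cell ran from 3 to 67 (median 34) in naive-low cells and from 18 to 100 (median 42) in naive-high cells. Tdgf1 (Cripto, the co-receptor of Nodal) had 249 and 556 CPM (-1.16), and L1td1, an RNA-binding protein, 112 and 210 CPM (-0.91). Tdgf1 also stands on the naive list. In all, 4 of 14 members (Sox2, Tdgf1, L1td1 and Dppa2) were lower and none of these 14 was higher.

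**Figure D3:**
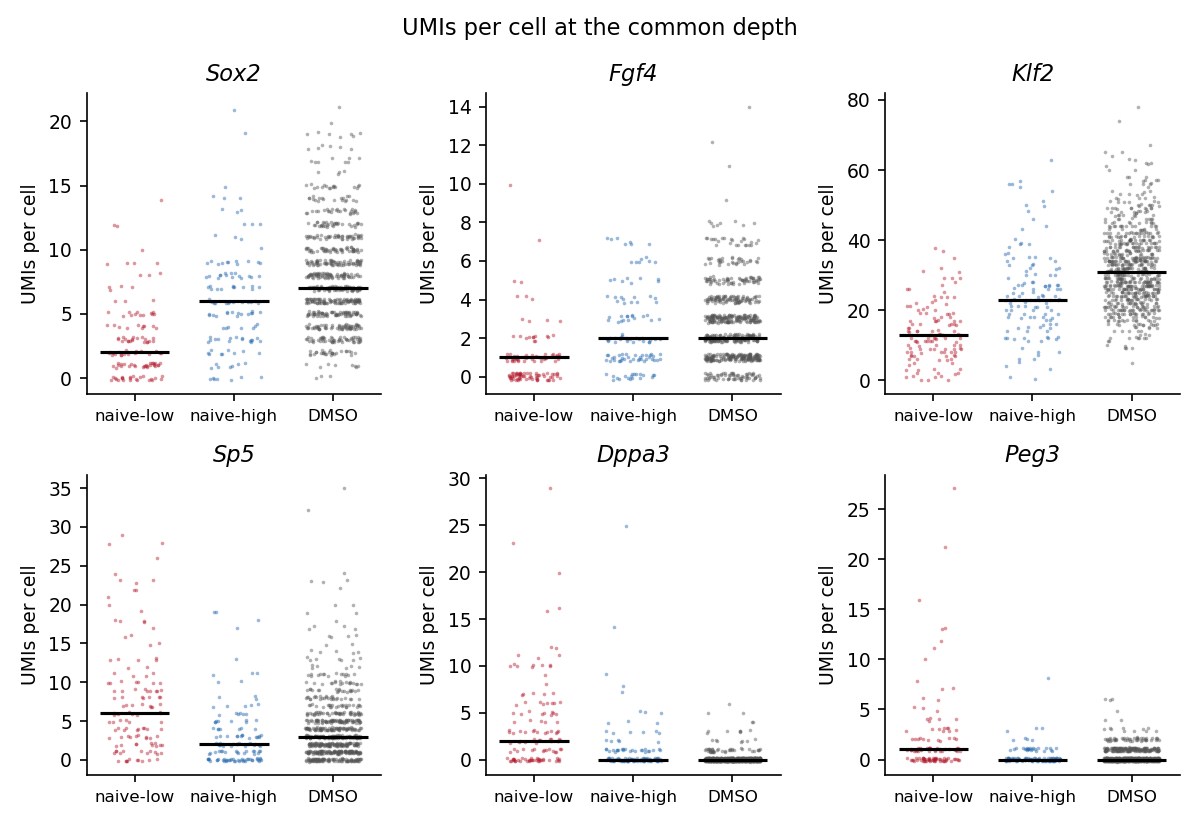
UMIs per cell at the common depth (vertical axes) for 6 genes in naive-low, naive-high and DMSO cells; each point is a cell, moved slightly at random for display, and black bars are medians. Sox2, Fgf4 and Klf2 have lower medians in naive-low cells, Sp5, Dppa3 and Peg3 higher ones, and the sides overlap for all 6.

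Dppa3 (Stella), a maternal and germ-cell factor that restrains DNA methylation and is used as a naive marker, was the 1 naive gene that was higher. It lies at chr6:122626410-122630272 (GRCm38, plus strand). Its level was 163 CPM in naive-low cells (152 to 173), 47.8 CPM in naive-high cells (41.8 to 54.3) and 4.61 CPM in DMSO cells, a log2 ratio of 1.77 (1.56 to 1.98). A naive-low cell had 0 to 29 UMIs (median 2) and a naive-high cell 0 to 25 (median 0), and 70.5%, 35.7% and 7.46% of naive-low, naive-high and DMSO cells had at least 1. Within cells called S the ratio was 1.64 and within cells called G2/M 2.64. Of the 12 DNA methylation genes with enough UMIs, Dnmt3a, a de novo methyltransferase, was also higher (0.59), and Dnmt3l, its cofactor (-0.64), Tet1, which oxidises methylcytosine (-0.89), and Zfp57, which protects imprints (-1.17), were lower. Dnmt1, the maintenance enzyme, had 119 and 107 CPM (0.16) and Uhrf1, its partner, 170 and 210.0 CPM (-0.31).

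Signalling genes were mixed. In the LIF and STAT3 list 4 of 13 were lower, namely Lifr, a receptor chain (-0.63), the kinases Pim1 (-0.54) and Pim3 (-0.56), and Tfcp2l1, and none of the 13 was higher. In the FGF and ERK list Fgf4, Etv5 (-0.50) and Spry2 (-0.62) were lower, and Dusp6 (0.73) and Spred1 (0.57), both feedback inhibitors, were higher, out of 7. Etv5, a transcription factor downstream of FGF, stood at -0.88 in cells called S and at 0.092 in cells called G2/M. In the Nodal, TGF-β and BMP list the ligands Nodal (-0.79), Bmp4 (-1.07) and Gdf3 (-0.62), the co-receptor Tdgf1 and the BMP target Id3 (-1.13) were lower. The antagonists Bambi (1.11) and Fst (1.14) were higher, and Fst stood at -0.091 within cells called S. The median of the list (0.33) and its sum (966 CPM in naive-low and 1471 CPM in naive-high cells, log2 ratio -0.61) thus differ in sign. Among its members under 200 UMIs, named after their values were seen, the Nodal feedback inhibitor Lefty1 had 98 UMIs in naive-low and 18 in naive-high cells, and the BMP target Id2 had 92 and 12. Against DMSO cells, Lefty1 was lower in both sides, at 16.8 CPM in naive-low, 3.67 CPM in naive-high and 29.3 CPM in DMSO cells.

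Part of the Wnt target genes were higher in naive-low cells. As background, GSK3 inhibition, as in 2i medium, is known to activate this pathway. Of 10 targets with enough UMIs, Sp5, Lef1, Cdx2, Cdx1 and Axin2 were higher, none of the 10 was lower, and the median over 14 members was 0.85. The summed level was 967 CPM in naive-low cells, 621 CPM in naive-high cells and 587 CPM in DMSO cells, so naive-high cells lay near the DMSO level. Sp5, a zinc finger repressor (chr2:70474923-70477729, GRCm38, plus strand), had 352 CPM in naive-low and 147 CPM in naive-high cells, against 174 CPM in DMSO cells (log2 ratio 1.26, interval 1.14 to 1.39). Single naive-low cells held 0 to 29 UMIs of Sp5 (median 6) and naive-high cells 0 to 19 (median 2). Lef1, a transcription factor of the pathway, had 29.5, 8.98 and 10.4 CPM (1.72), though its locus overlaps the annotated Gm42449 on the same strand. Cdx2, a caudal homeobox factor, had 49.5, 16.7 and 11 CPM (1.57), and Axin2, a negative regulator, 73.9, 47.8 and 38.4 CPM (0.63). Dkk1, a secreted Wnt antagonist that is itself a target, had 31.2, 4.90 and 3.69 CPM (2.67). It is not on the list and is not part of its counts, median or sum. The list median was 0.36 in cells called S, 1.34 in cells called G2/M and 0.84 with quintiles drawn inside phases, and Cdx1 stood at -0.050 in cells called S.

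Genes of the lineage lists were mostly sparse. In the mesendoderm list no member reached 200 UMIs. T (Brachyury), the primitive streak factor, had 137 UMIs in naive-low and 23 in naive-high cells (log2 ratio 2.32, interval 1.68 to 3.03), while Eomes had 35 and 39 and Gsc 53 and 51. Of the primitive endoderm list, 3 of 5 were higher, namely the collagen chaperone Serpinh1 (1.25), the laminin chain Lamb1 (0.95) and Fst, and the laminin chain Lamc1 was lower (-0.51). Its defining factors Gata4, Gata6, Sox17, Sox7 and Pdgfra summed to 61 UMIs in 37 naive-low cells and 24 UMIs in 20 naive-high cells, with at most 5 UMIs in any 1 naive-low cell. The list median was 0.59 overall and -0.091 in cells called S. Of 7 trophectoderm genes, Esx1, a placental homeobox gene (2.64), Cdx2, and Gata2 (0.85) were higher and Tead4 was lower (-0.66). The trophectoderm markers Cdx2, Elf5, Gata3, Hand1 and Krt7 together had a UMI in 90 naive-low and 37 naive-high cells, 289 of the 355 naive-low UMIs came from Cdx2, and Elf5 was at 0 in naive-low cells. Of the neuroectoderm list, 1 gene had enough UMIs and it did not pass the rule, the list median was -0.13 (-0.14 to 0.25 over the settings run), and the factor Olig2 was at 0 in both sides.

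Genes of simple epithelia were higher in part. Of 15 with enough UMIs, Lgals7 (1.24), Cldn7 (1.13), Cldn6 (0.99), Cldn3 (0.58), Epcam (0.54) and Perp (0.50) were higher, Lgals3 was lower (-0.51), and 8 were neither. The keratin Krt8 had 136 CPM in naive-low and 118 CPM in naive-high cells (0.21, and -0.077 to 1.00 over the settings run), and its partner Krt18 had 130 and 43 UMIs (1.34), of which 1 naive-low cell held 15.4%. E-cadherin (Cdh1) had 104 and 139 CPM (-0.41). In the actin cytoskeleton list the 5 higher genes were annexin and S100 family members with galectin 1 (S100a6, Anxa2, Lgals1, S100a10 and S100a11), whereas Actb (-0.15) and Actg1 (-0.14) had ratios just below 0. The fibroblast list had Fn1 (-0.61) and Timp1 (-0.64) lower out of 3. Its markers Col1a1, Col1a2, Col3a1, Dcn, Lum, Postn and Thy1 summed to 115 UMIs in 52 naive-low cells and 21 UMIs in 16 naive-high cells. Postn was at 0 in both sides, and any of the 7 markers had a UMI in 28 of 764 DMSO cells. The largest number of their UMIs in any 1 naive-low cell was 14, and the part of such transcripts in the other results was not tested.

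Some imprinted and germline genes were higher in naive-low cells. Of 16 imprinted genes with enough UMIs, Peg3, Cdkn1c, Phlda2, Peg10 and Plagl1 were higher and none of the 16 was lower, with a list median of 0.36. Peg3, a paternally expressed zinc finger gene (chr7:6703892-6730431, GRCm38, minus strand), had 82.4 CPM in naive-low cells, 16.7 CPM in naive-high cells and 18.0 CPM in DMSO cells (2.30, interval 1.96 to 2.66). A naive-low cell had 0 to 27 UMIs of Peg3 (median 1) and a naive-high cell 0 to 8 (median 0). Phlda2, a maternally expressed regulator of placental growth, had 108, 36.7 and 2.13 CPM (1.56), and Cdkn1c, a cyclin-dependent kinase inhibitor, 38.6, 11.2 and 3.13 CPM (1.78). Meg3 (-0.027) and Kcnq1ot1 (0.012), imprinted noncoding RNAs, were near 0. The imprinted median was 0.43 in cells called S and 0.42 in cells called G2/M.

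Of 6 germline genes that methylation silences in somatic cells, Dazl, Tex19.1 and Tuba3a were higher and none of the 6 was lower. Dazl, an RNA-binding protein of germ cells, had 122 CPM in naive-low cells, 58.6 CPM in naive-high cells and 6.62 CPM in DMSO cells (1.06), with 0 to 49 UMIs per naive-low cell (median 1) and 0 to 19 per naive-high cell (median 0). Tuba3a has close paralogues and 1 cell gave 19.3% of its naive-low UMIs, so its value is uncertain. Khdc1a, which had the highest ratio among genes with at least 200 UMIs, had 218 UMIs in naive-low and 15 in naive-high cells (37.4 and 3.06 CPM, against 0.928 CPM in DMSO cells). It also has close paralogues that could share reads, and 1 cell held 16.5% of its naive-low UMIs. Its paralogue Khdc1c, on the list for the 2-cell-like state, had 116 and 5 UMIs. Zscan4c, Zscan4f, Tcstv1, Tcstv3 and Duxf3, which define that state, were at 0 in both sides (0 of 129 cells in each, which allows a share of cells with a UMI of up to 2.33%). Zscan4d had 1 UMI in naive-low cells, and Zfp352 1 UMI in naive-high cells.

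**Figure D4:**
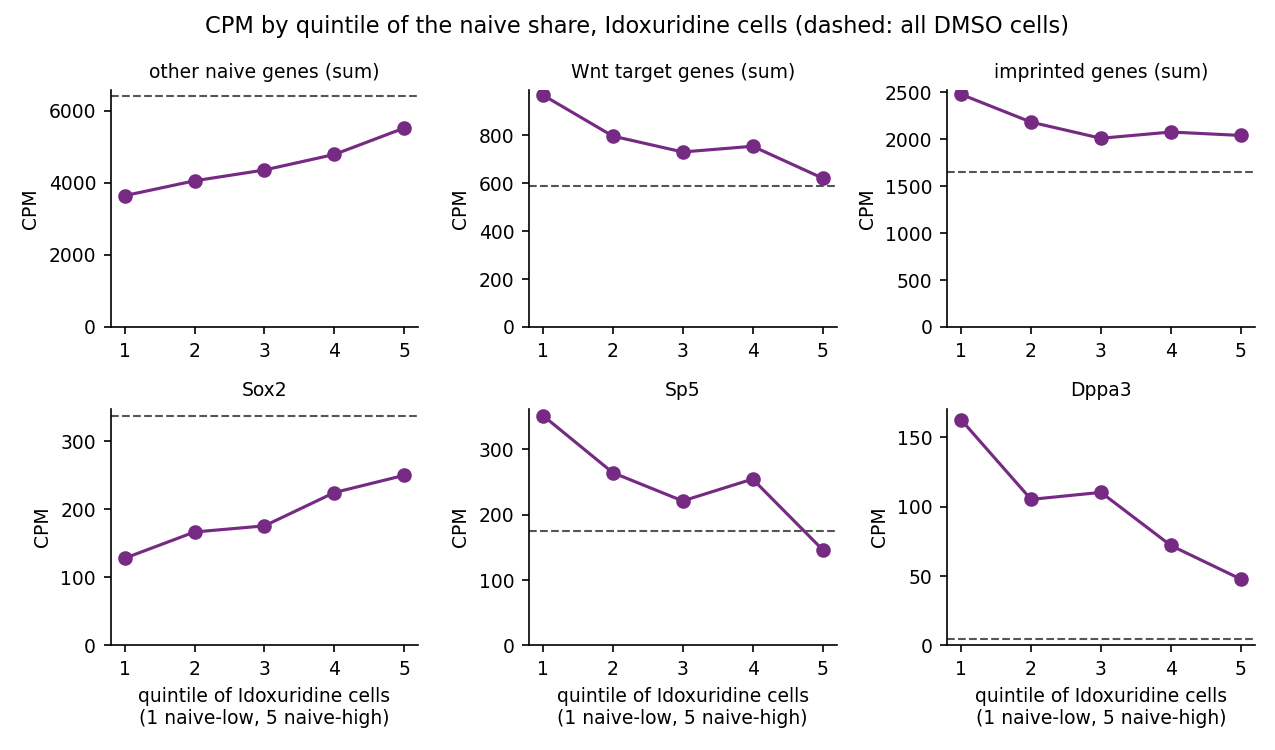
CPM (vertical axes, starting at 0) in the 5 quintiles of Idoxuridine cells ordered by the naive share, for 3 gene lists and 3 genes; dashed lines are the level over all kept DMSO cells. The other naive genes and Sox2 are higher at each step from quintile 1 to 5 and stay under the DMSO level, and Dppa3 stays above it in all 5 quintiles, at 47.8 CPM in the naive-high one.

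Stress lists were mixed. Over all genes compared, 6.72% passed the rule in either direction. The lists of p53 targets, protein-folding and integrated stress, oxidative stress and immediate early genes lay above that share, on small counts. Of 27 p53 targets, Ddit4 (0.74) and Perp were higher, Gadd45a (-0.78) and Xpc (-0.51) were lower, and 23 were neither. The arrest gene Cdkn1a (p21) had 278 CPM in naive-low cells, 242 CPM in naive-high cells and 204 CPM in DMSO cells (0.20), and Mdm2, the p53 ubiquitin ligase, 155, 199 and 87.2 CPM (-0.37). None of 15 heat shock genes, 21 lysosomal genes or 10 polyamine genes passed the rule in either direction. At the share over all genes, lists this small would hold few. Of 22 genes for protein-folding stress and the integrated stress response, Ddit4 and Nupr1 (0.54) were higher and Cth, which makes cysteine (-1.02), was lower. Nupr1 stood at -0.015 in cells called S. Of 21 oxidative stress genes, Gclc, for glutathione synthesis, was higher (0.63), and Sod2, the mitochondrial superoxide dismutase (-0.53), and Gsta4, a glutathione transferase (-0.70), were lower. Among 10 immediate early genes, Ctgf (0.93), Klf6 (0.67) and Cyr61 (0.60) were higher. The glucose transporter Slc2a3 (-0.73) and Pdk1, a kinase that restrains pyruvate oxidation (-0.65), were lower out of 16 glycolysis and hypoxia genes, though Slc2a3 overlaps Gm4482 on the same strand. Of 16 one-carbon and glycine genes, Shmt1, a serine hydroxymethyltransferase, was lower (-0.51), a count near the share over all genes. Of 6 formative and primed genes, Dnmt3a, Lef1 and Cldn6 were higher and Etv5 was lower. The median over the 12 members of this list with at least 50 UMIs was -0.15. Its sum was 432 CPM in naive-low and 410 CPM in naive-high cells (log2 ratio 0.073, interval -0.012 to 0.16), so the list had no common direction. None of 6 nuclear-retained RNAs passed the rule, and of 83 ribosomal protein genes 1 was higher. None of 15 housekeeping genes passed the rule, and their median log2 ratio was 0.00087.

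Phases were called from the S and G2/M lists, so these lists differ with the phases by construction and are given as a description. Of 54 G2/M genes 14 were higher and none of the 54 was lower, with Ube2c, which helps the anaphase-promoting complex, at 664 CPM in naive-low and 416 CPM in naive-high cells (0.67) and Cenpf, a kinetochore protein, at 440 and 248 CPM (0.83). The S phase list had a median of -0.21, and its members Wdr76 (-0.61) and Chaf1b (-0.51) were lower. Within cells called G2/M the median of the G2/M list was -0.059, with Ube2c at -0.076 and Nusap1 at -0.091. Mitochondrially encoded genes had a median of 0.21 and ribosomal protein genes 0.13. Median UMIs per cell were 39320 in naive-low and 35736 in naive-high cells, genes per cell at the common depth 5409 and 5356, mitochondrial shares 2.89% and 2.71%, and nuclear-retained RNA shares 0.494% and 0.559%. The naive-low cells summed to 5833954 UMIs and the naive-high cells to 4900053. No doublet caller was run, and 8 naive-low and 3 naive-high cells had over 2 times the median UMIs of their library. The 2 libraries shared 2 cell barcodes, none of them in either side.

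**Figure D5:**
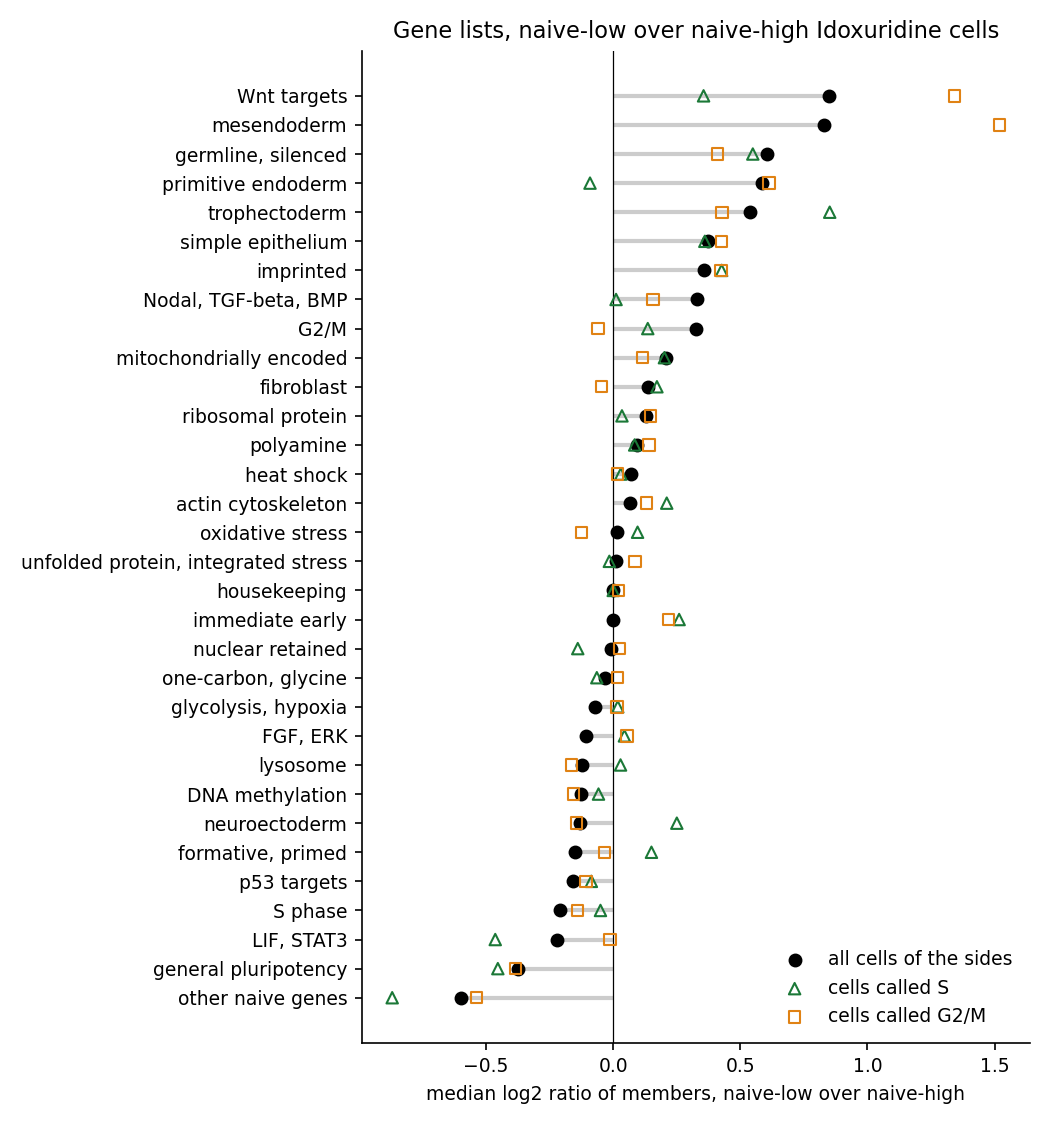
Median log2 ratio of naive-low over naive-high (horizontal axis) for each gene list over members with at least 50 UMIs, for all cells of the sides, cells called S and cells called G2/M; mesendoderm has no value in cells called S. The other naive genes are below 0 and the Wnt targets, germline and imprinted genes above 0 in all 3, while the G2/M list is at 0.32 over all cells and at -0.059 in cells called G2/M.

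The same share was then used to order the DMSO cells, in which the bottom and the top quintile held 152 cells each. Of 6910 genes with enough UMIs there, 68 (0.984%) were higher and 216 (3.13%) were lower in the bottom quintile, 4.11% in either direction. The median log2 ratio over these 6910 genes was -0.060, and that of the 15 housekeeping genes -0.14. The share of the score genes also spanned less in DMSO cells, with a median of 2389 CPM in the bottom and 3860 CPM in the top quintile, against 1278 CPM in naive-low and 3188 CPM in naive-high cells, so ratios of the 2 libraries are given side by side and not on an equal span. The DMSO quintiles differed in depth, with a median of 53540 UMIs per cell in the bottom and 39950 in the top one, and 46.1% and 38.2% of their cells were called G2/M. The part of depth and phase in these counts was not tested. Both libraries had 36 lower genes in common, which was 16.2% of the Idoxuridine list and 16.7% of the DMSO list, and 10 higher genes in common, which was 4.85% and 14.7%. The median of the naive list was below 0 in both, at -0.60 in Idoxuridine and -0.34 in DMSO cells, with 13 of 21 and 6 of 22 members lower. In DMSO cells other lists had medians as low, such as FGF and ERK genes (-0.34) and p53 targets (-0.32), while ribosomal protein genes were above 0 (0.21). The DMSO value is thus not particular to naive genes. Of the 12 lowest genes, Tbx3, Nr5a2, Zfp57, Bmp4, Enox1 and Calcoco2 were counted as lower in both libraries. For Wnt targets the medians were 0.85 and 0.052, for imprinted genes 0.36 and -0.015, and for germline genes 0.60 and -0.43, and the differences between the libraries were not tested. Each library used its own members with at least 50 UMIs, so these medians rest on unlike sets. They held 14 and 12 Wnt targets, 21 and 17 imprinted genes, and 10 and 6 germline genes. Sp5 had a ratio of 1.26 in Idoxuridine and 0.19 in DMSO cells, Peg3 2.30 and 0.30, and Cdx2 1.57 and 0.34. Among the genes counted as higher in both libraries were Peg10 (1.30 in Idoxuridine and 0.54 in DMSO cells) and Bambi (1.11 and 0.52). Dkk1 had 2.67 and 1.97, with 67 UMIs over both DMSO quintiles, too few to be counted there.

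The 5 quintiles of Idoxuridine cells, from naive-low to naive-high, are given for 3 genes as a description. Peg3 had 82.4, 36.7, 25.7, 20.9 and 16.7 CPM, so its largest step was between the naive-low cells and the next quintile. Sox2 had 128, 167, 176, 225 and 250 CPM and stayed below the DMSO level of 337 CPM throughout. Sp5 had 352, 264, 221, 254 and 147 CPM, and its naive-high value was below the DMSO level of 174 CPM.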

How the data were processed

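Per the labels, libraries used 10x Genomics 3′ V2 chemistry and Illumina sequencing. The deposited tables hold counts (UMIs, whole numbers, without normalization) for 27998 genes in each cell. The submitters' processing notes name Cell Ranger 2, Seurat and mm10; annotation, strand setting and cell filter are not given in the sources used here. Every barcode was kept as a cell unless it had under 23500 UMIs (94 Idoxuridine and 47 DMSO cells left out); no doublet caller was run. UMIs were summed per side and scaled to CPM with exact Poisson 95% intervals, and ratios have exact conditional binomial intervals. Shares of cells (Clopper-Pearson intervals), UMIs per cell and phases (scanpy 1.11.5) used 1 seeded thinning to 23500 UMIs. The comparison was run on simulated Poisson sums with known changes. These had no spread between cells and no choice of cells by the share, so they check the calculation only. The naming rule took the 12 highest and 12 lowest ratios, the 10 largest CPM differences, up to 4 genes per list and a fixed few; other genes were named after their values were seen. The cells, the 33 gene lists and the rules were chosen with earlier results of these data known. Gene coordinates are GENCODE M21 on GRCm38, which held 98.7% of the gene IDs. Values of some list members are not reported here.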

Additional observations from a re-analysis of the deposited data

Results flagged for a closer look

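For 6 genes the bottom quintile by the naive share was higher in Idoxuridine cells and lower in DMSO cells, each past the size rule. With 1 library per treatment the difference between the libraries was not tested. Tex19.1, a germline gene, had a log2 ratio of 0.74 in Idoxuridine cells (164 CPM in naive-low and 98.2 CPM in naive-high cells) and -1.04 in DMSO cells (20.3 CPM in the bottom and 41.9 CPM in the top quintile). Perp, a p53 target of desmosomes, had 0.50 (95.1 and 67.1 CPM) and -1.08 (18.6 and 39.1 CPM). Fkbp6, a germline chaperone gene, had 0.76 (75.9 and 44.7 CPM) and -0.89 (9.94 and 18.4 CPM). Spred1 had 0.57 and -0.61, Top2b, a topoisomerase, 0.70 and -0.50, and Gm10184 0.58 and -0.54. All 6 had higher levels in each Idoxuridine side than in the DMSO quintile of the same rank, except Spred1 in the top quintiles, with 20.6 CPM in naive-high and 21.2 CPM in top DMSO cells. Genes called in opposite directions were 2.91% of the genes higher in naive-low cells and 2.78% of the genes lower in the DMSO bottom quintile. Over all genes, 3.13% were lower in the DMSO bottom quintile and 3.24% higher in naive-low cells, so these shares are not above the background, and no gene went the other way round (0 of 222).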

How the results depend on the processing

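The count of genes higher in naive-low cells (206) was 119 with deciles in place of quintiles, 128 with Zfp42 left out of the share, 82 in cells called S, 128 in cells called G2/M and 132 in cells of the middle range of nuclear-retained share. It was 403 with a minimum of 50 UMIs and 503 with none. The count of lower genes (222) was 134 with tertiles, 144 in the middle range of nuclear-retained share and 338 with no minimum of UMIs. Restricted sets hold fewer cells and so fewer genes with 200 UMIs; apart from that the cause was not tested. The share of higher genes among those counted was 35.6% with deciles, 59.8% with tertiles, 31.1% in cells called S and 59.8% with no minimum. In cells called S the sign turned for the primitive endoderm median (-0.091), Cdx1 (-0.050), Fst (-0.091) and Nupr1 (-0.015). In cells called G2/M it turned for the G2/M median (-0.059), Etv5 (0.092), Nusap1 (-0.091) and Ube2c (-0.076), and in the middle range of nuclear-retained share for the Nodal, TGF-β and BMP median (-0.18). List medians nearer 0 changed sign too, such as neuroectoderm (-0.14 to 0.25 over the settings run), and so did Krt8 (-0.077 to 1.00). Dppa3 stood at 2.12 without the cell with the most UMIs in each side. In each single setting over cells or scalings that was run, at least 418 of the 428 genes counted kept their sign. How many kept it in all settings at once was not counted. These genes were picked for their ratio in the same library, so the kept signs are a description only. TMM and median-of-ratios scaling (edgeR 4.0.16 for TMM) and scaling outside mitochondrial and ribosomal genes moved the median of all genes to between -0.020 and 0.021. The setting with G1 cells was not run, as each side had 2 such cells. No paired analysis was possible because each treatment has 1 library, which also leaves no replicate to omit. Counting depth limits genes under 200 UMIs, and the spread between cultures is unknown.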

Other observations

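Genes of no list also led both ends, and their values are given without explanation. Ldoc1, a retrotransposon-derived gene known from the placenta, had 30.5 CPM in naive-low cells, 7.55 CPM in naive-high cells and 0.451 CPM in DMSO cells, and Phlda1 had 82.8, 26.5 and 7.67 CPM. Slc7a3, a transporter of cationic amino acids, had 21.1 CPM in naive-low cells, 52.2 CPM in naive-high cells and 90.9 CPM in DMSO cells, and its DMSO quintile log2 ratio was 0.096. Calcoco2, an autophagy receptor, had 71.0, 154 and 28.8 CPM and was lower in the bottom quintile of both libraries, at -1.12 in Idoxuridine and -0.92 in DMSO cells. Both naive regulators Foxd3 and Prdm14 were under 200 UMIs and were named after their values were seen: Foxd3 had 23 UMIs in naive-low and 99 in naive-high cells (log2 ratio -2.36, interval -3.08 to -1.69), and Prdm14 had 16 and 68 (-2.34, -3.22 to -1.54). Among Wnt targets under 200 UMIs, Nkd1, a feedback inhibitor, had 116 and 24 UMIs and the ligand Wnt3 had 65 and 15.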
